A study of Mus musculus with 12 samples.

Results

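The genes followed here are the solute carriers that move sugars, amino acids and monocarboxylates such as lactate and pyruvate across cell membranes. They were taken as every symbol that starts with Slc1a, Slc2a, Slc3a, Slc5a, Slc6a, Slc7a, Slc16a, Slc36a, Slc38a or Slc43a followed by a number, and each gene was read by its brightest probe set that names a single symbol. The rule found 101 of the 18193 genes measured. Of these, 97 are named as transporters or their heavy chains, and 4 are opposite-strand or pseudogene symbols (Slc2a4rg-ps, Slc6a19os, Slc7a6os and Slc36a1os).

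Solute carriers set what a cell can take up. Facilitative glucose carriers of the Slc2a family let glucose run down its gradient, while Slc5a members drive sugars, inositol and other solutes with sodium. Slc16a carriers move lactate, pyruvate and some amino acids or thyroid hormones. Amino acids cross by sodium-driven carriers (Slc1a, Slc6a, Slc38a), proton-driven carriers (Slc36a), exchangers (Slc7a, many of which need the heavy chain Slc3a1 or Slc3a2) and the facilitated Slc43a carriers. The visceral endoderm of the yolk sac is an absorptive epithelium with a brush border, and it feeds the embryo before the placenta takes over.

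Yolk sacs of wild type (Hypb+/+) and knockout (Hypb-/-) mouse embryos of the strain 129Sv/C57BL/6 were collected at either of 2 stages, embryonic day 9.0 (E9.0) and E10.5, and their RNA was read on single-colour expression arrays. Hypb, now called Setd2, encodes the enzyme that adds the third methyl group to lysine 36 of histone H3. The labels name no treatment. The 4 groups (each genotype at each stage) held 3 arrays each, every array from a pool of 4 yolk sacs of 1 genotype, and the labels do not say which part of the gene was deleted. According to the design text, knockout embryos looked close to normal at E9.0 and were near death at E10.5. Values are log2 RMA signals, on which a difference of 1 is a 2-fold change.

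Setd2 signal was 7.53 to 7.99 on the E9.0 knockout arrays against 8.83 to 9.08 in wild type, and 7.77 to 8.07 against 8.66 to 8.77 at E10.5, so the arrays followed their labels at both stages. The visceral endoderm markers were bright on every array, with a mean over the 10 markers between 12.59 and 12.89. At E10.5 that mean was 12.59 to 12.75 in the knockout and 12.80 to 12.89 in wild type, and 1 of the 10, Cubn, was lower past the threshold (-0.36), as were 3.16% of all genes. Lists for mesenchyme, macrophages, heart and nerve, and endothelium each held markers that were higher in the E10.5 knockout, where 4.12% of all genes were higher. The mean of 8 mesothelium and mesenchyme markers was 9.97 to 10.44 in the knockout and 9.54 to 9.73 in wild type, with 4 of 8 higher. The mean of 5 macrophage markers was 7.06 to 7.22 against 6.67 to 6.71, with 3 of 5 higher. The mean of 6 heart and nerve markers was 4.75 to 5.57 against 4.08 to 4.18, with Myl7 and Tnnt2 higher and the other 4 not past the threshold. Endothelial markers gave 7.57 to 8.22 against 7.19 to 7.59, with 1 of 8, Pecam1, higher. The mean of 7 primitive red cell markers was 9.98 to 10.58 against 10.48 to 10.60, with all 7 changes negative and none past the threshold by limma, where 1 had an unadjusted p under 0.05. The mean of 4 trophoblast and decidua markers was 4.98 to 6.13 against 5.17 to 5.67, and 0 of 4 had an unadjusted p under 0.05. At E9.0 these ranges overlapped between genotypes in every list, although 1 macrophage marker was higher and 1 lower (0.550% and 0.632% of all genes). The part of these shifts in the results below was not tested, and in pooled tissue fewer cells of a type and less RNA per cell cannot be told apart. Replicate 3 at each stage stood apart in its control probe sets, so values within replicates 1 and 2 are given beside the main results. The difference in replicate 3 alone is 1 array against 1 and has no test.

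The members spanned nearly the whole range of the arrays. Of the 101, 45 lay above the median gene, whose 12-array mean was 6.52. All 3 Slc43a genes, 8 of 9 Slc38a genes and 8 of 13 Slc16a genes were above it, against 3 of 13 Slc5a genes, 6 of 21 Slc6a genes and 2 of 7 Slc1a genes. The brightest member of each subfamily was Slc1a3, Slc2a3, Slc3a2, Slc5a3, Slc6a6, Slc7a9, Slc16a1, Slc36a1, Slc38a2 and Slc43a3. Signals of different probe sets depend on the probes, so these levels do not rank the genes by transcript number.

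At E9.0, 4 members (3.96%) passed an adjusted p of 0.05 in the knockout, against 1.18% of all genes. Slc38a1 and Slc16a7 were higher and Slc6a19 and Slc7a7 lower, where 0.550% of all genes were higher and 0.632% lower. At E10.5, 8 members (7.92%) passed, close to the 7.28% of all genes. Slc38a1, Slc6a20b and Slc36a4 were higher (4.12% of all genes), and Slc6a19, Slc6a18, Slc3a1, Slc6a4 and Slc38a9 were lower (3.16%). The median change of the 101 was -0.020 at E9.0 and -0.077 at E10.5, against -0.0067 and -0.013 over all genes. All 3 knockout arrays lay on 1 side of all 3 wild type arrays for 19 members at E9.0 (12 higher and 7 lower), against 18.0% of all genes (8.56% higher and 9.42% lower). The same held for 29 members at E10.5 (14 higher and 15 lower), against 22.8% of all genes (11.5% higher and 11.3% lower). At an unadjusted p under 0.05 there were 18 members at E9.0 and 22 at E10.5, against 11.8% and 20.2% of all genes. By these counts the members as a group stood near the background at E10.5, and the results below concern single genes.

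**Figure D1:**
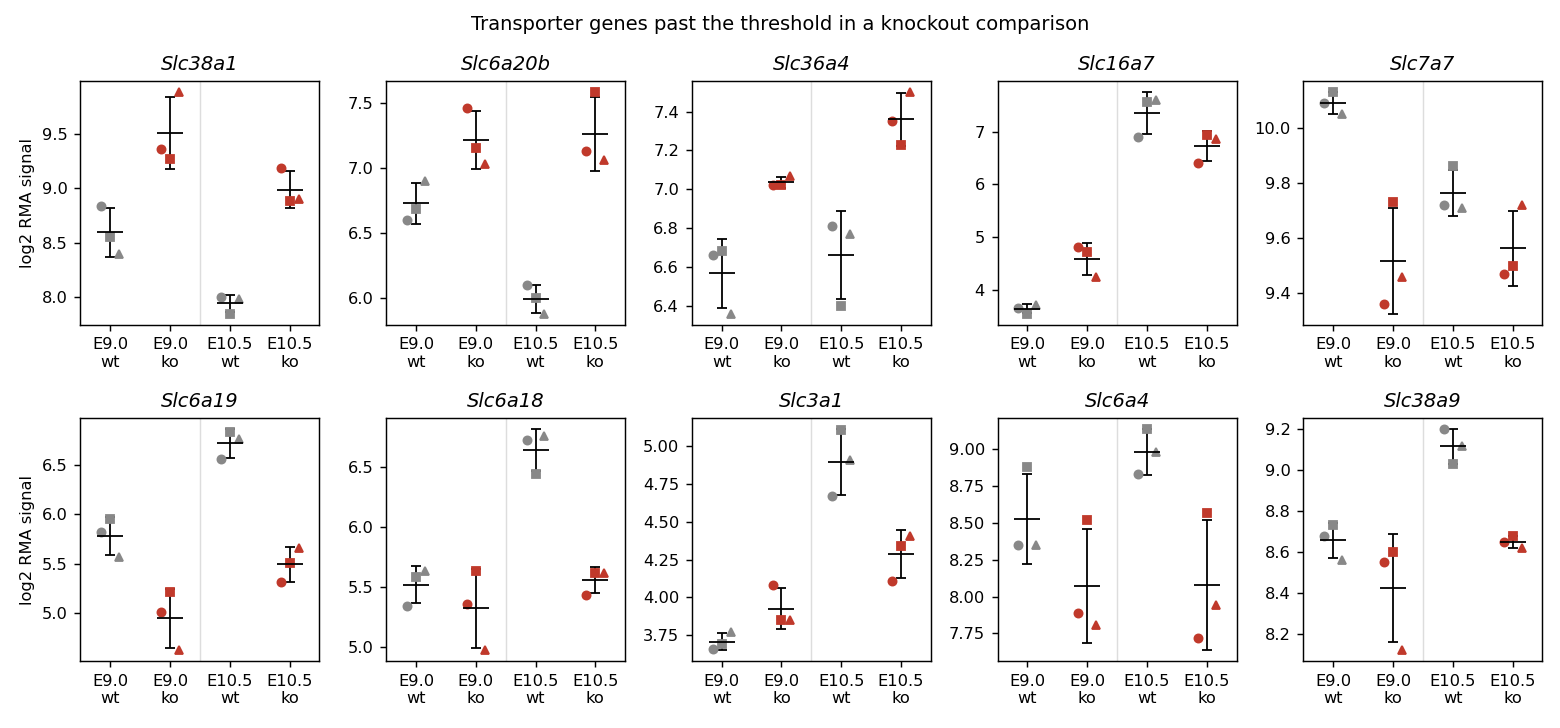
Log2 RMA signal of the 10 genes past the threshold in a knockout comparison, on each of the 12 arrays, by stage and genotype (wt, wild type, grey; ko, knockout, red). Circles, squares and triangles are replicates 1, 2 and 3, the long bar is the group mean, the error bar is 1 SD (n = 3), and each panel has its own scale. Slc6a19 and Slc6a18 sit between 5.31 and 5.66 in the E10.5 knockout and between 6.44 and 6.84 in wild type.

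The lower genes at E10.5 included both linked carriers of neutral amino acids at brush borders. Slc6a19 (chromosome 13), the sodium-driven carrier that takes up most neutral amino acids in gut and kidney, read 6.56, 6.84 and 6.77 in wild type replicates 1 to 3 at E10.5 and 5.31, 5.51 and 5.66 in the knockout. No knockout array reached a wild type array. The change was -1.23 (SE 0.16; 2.35-fold lower; adjusted p = 6.34e-04). It was -1.29 in replicates 1 and 2 alone (adjusted p = 0.00335), against -1.11 in replicate 3, and the call held without any 1 of the 6 E10.5 arrays. A second probe set of the gene gave -1.29.

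Slc6a19 was also lower in the E9.0 knockout. It read 5.82, 5.95 and 5.57 in wild type and 5.01, 5.21 and 4.62 in the knockout, again with no overlap. The change was -0.83 (SE 0.16; 1.78-fold lower; adjusted p = 0.0282), and -1.14 by the second probe set. It was -0.78 in replicates 1 and 2 alone (adjusted p = 0.0581), against -0.95 in replicate 3. The call was lost on leaving out knockout replicate 1 (adjusted p = 0.113), knockout replicate 3 (0.0785), wild type replicate 1 (0.0975) or wild type replicate 2 (0.122), and the size then lay between -0.67 and -0.87.

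Slc6a18 lies next to Slc6a19 on chromosome 13 and encodes a related carrier of neutral amino acids at the kidney brush border. At E10.5 it read 6.73, 6.44 and 6.76 in wild type and 5.43, 5.62 and 5.62 in the knockout, so the groups were well apart. The change was -1.09 (SE 0.16; 2.12-fold lower; adjusted p = 0.00133), with -1.06 in replicates 1 and 2 alone (adjusted p = 0.00830), against -1.14 in replicate 3. The call held without any 1 of the 6 E10.5 arrays. At E9.0 the genotypes overlapped, with 5.34, 5.58 and 5.63 in wild type and 5.36, 5.63 and 4.97 in the knockout (-0.20, SE 0.16; adjusted p = 0.719). The 2 stages' effects differed by -0.89 (SE 0.22), which did not pass the threshold (adjusted p = 0.153).

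Cltrn (chromosome X), which encodes collectrin, is no carrier itself. It holds Slc6a19 and related carriers at the kidney brush border. It belonged to a list of 13 partner and trafficking proteins, 12 of them measured. Cltrn read 8.03, 8.03 and 7.84 in E10.5 wild type and 5.68, 5.69 and 6.18 in the knockout, with no overlap. It fell by 2.12 on the log2 scale (SE 0.18; 4.34-fold lower; adjusted p = 4.71e-05). The fall was -2.34 in replicates 1 and 2 alone (adjusted p = 5.91e-04), against -1.66 in replicate 3, and the call held without any 1 of the 6 E10.5 arrays. At E9.0 it read 5.72, 5.85 and 5.55 in wild type and 5.07, 5.48 and 4.73 in the knockout (-0.61, SE 0.18; adjusted p = 0.143), also without overlap. The knockout effect was more negative at E10.5 by 1.50 (difference -1.50, SE 0.26; adjusted p = 0.0387), a difference that passed the threshold for 0.187% of all genes.

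Slc3a1 (chromosome 17) encodes the heavy chain that brings the cystine and dibasic amino acid exchanger Slc7a9 to the brush border. Its E10.5 signals were 4.67, 5.11 and 4.91 in wild type and 4.11, 4.34 and 4.41 in the knockout. The groups did not overlap, though the signal was dim in both, and RMA compresses changes of dim probe sets. The change was -0.61 (SE 0.12; 1.53-fold lower; adjusted p = 0.0110), with -0.67 in replicates 1 and 2 alone (adjusted p = 0.0411), against -0.50 in replicate 3. Leaving out knockout replicate 1 (-0.52, adjusted p = 0.0517) or wild type replicate 2 (-0.50, adjusted p = 0.0533) ended the call. At E9.0 it read 3.66, 3.69 and 3.77 in wild type and 4.08, 3.85 and 3.85 in the knockout (0.22, SE 0.12; adjusted p = 0.552), and the difference between the stages' effects, -0.83 (SE 0.18), missed the threshold (adjusted p = 0.0977).

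Its light chain Slc7a9 did not pass at either stage. Slc7a9 read 11.81, 11.91 and 11.75 in E10.5 wild type and 11.45, 11.80 and 11.65 in the knockout, and the ranges overlapped. The change was -0.19 (SE 0.13; adjusted p = 0.461) at E10.5 and -0.18 (SE 0.13; adjusted p = 0.671) at E9.0. Pdzk1, the scaffold that anchors brush border carriers, read 11.72 to 11.75 in E10.5 wild type and 11.75 to 11.85 in the knockout (0.057, adjusted p = 0.809). On the same arrays the median change of the 10 visceral endoderm markers was -0.21 at E10.5, with Afp at 0.010, Ttr at -0.033, Cubn at -0.36 and Hnf4a at -0.35 (adjusted p = 0.0946). Their part in the lower signals of Slc6a19, Slc6a18, Slc3a1 and Cltrn was not tested.

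Promoter windows of Slc6a19, Slc3a1 and Cltrn are shown because these genes moved in the same direction at E10.5 and share brush border use, with Slc6a20b, which moved the other way, for comparison. Each window holds 250 bases before and 50 after the gene start from RefSeq's table for GRCm38.p6, on the gene's own strand and 5′ to 3′, and 74 of the 101 members had such a window. Slc6a18 was not among them. Capitals mark the half-site GTTAAT of the liver and kidney factor HNF1 and the core CAAAGTCCA of the endoderm factor HNF4, each searched on both strands, so that ATTAAC is the half-site read from the other strand.
Slc6a19, chr13:73692587-73692886, minus strand: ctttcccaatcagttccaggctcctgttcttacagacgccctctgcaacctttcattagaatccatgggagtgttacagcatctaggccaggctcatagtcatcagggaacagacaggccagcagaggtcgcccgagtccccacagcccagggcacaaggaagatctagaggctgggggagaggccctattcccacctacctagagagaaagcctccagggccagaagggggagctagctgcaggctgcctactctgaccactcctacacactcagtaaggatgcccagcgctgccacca
Slc3a1, chr17:85028097-85028396, plus strand: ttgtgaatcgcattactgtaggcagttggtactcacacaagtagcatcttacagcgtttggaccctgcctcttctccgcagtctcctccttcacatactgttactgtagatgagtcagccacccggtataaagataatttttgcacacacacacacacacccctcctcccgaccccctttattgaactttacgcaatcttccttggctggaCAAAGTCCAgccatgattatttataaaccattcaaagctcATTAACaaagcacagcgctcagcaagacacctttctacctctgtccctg
Cltrn, chrX:164089937-164090236, plus strand, the first of its windows: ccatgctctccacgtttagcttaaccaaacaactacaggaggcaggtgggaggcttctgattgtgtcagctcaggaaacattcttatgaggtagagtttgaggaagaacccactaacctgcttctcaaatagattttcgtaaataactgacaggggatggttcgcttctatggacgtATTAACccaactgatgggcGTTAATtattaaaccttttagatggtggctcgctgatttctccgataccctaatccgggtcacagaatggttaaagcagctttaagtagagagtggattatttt
Slc6a20b, chr9:123632489-123632788, minus strand: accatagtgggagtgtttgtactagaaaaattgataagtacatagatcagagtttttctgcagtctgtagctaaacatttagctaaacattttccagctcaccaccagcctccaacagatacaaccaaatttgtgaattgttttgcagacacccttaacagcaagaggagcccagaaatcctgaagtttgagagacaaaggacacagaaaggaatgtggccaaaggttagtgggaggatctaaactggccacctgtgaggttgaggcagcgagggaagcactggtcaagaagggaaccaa

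The Slc3a1 window held the HNF4 core 39 bases before the gene start (position -39) and an HNF1 half-site that begins at position 2. The first Cltrn window held an HNF1 half-site at -73 and another at -54. Neither sequence was found in the windows of Slc6a19 and Slc6a20b. The HNF1 half-site occurred in 7.1% of all 32851 windows and in 10.3% of the 97 member windows, and the HNF4 core in 0.475% and 1.03%. The cores of the amino acid response element (TGATGNAA) and the hypoxia response element (ACGTG) were also searched and are not in capitals. They occurred in 3.97% and 19.6% of all windows and in 5.15% and 26.8% of member windows. Of the printed windows only that of Cltrn held either, a hypoxia core at -240. These matches describe letters and do not show binding. The Slc6a20b window was poor in CpG, with 1 CpG, where the median was 7.0 over all windows and 11.0 over member windows.

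Slc6a20b (chromosome 9) is one of a pair of mouse genes for carriers of imino acids such as proline. The E10.5 signals were 6.10, 6.00 and 5.88 in wild type and 7.13, 7.58 and 7.06 in the knockout. Each knockout array was well above the wild type arrays. The change was 1.26 (SE 0.15; 2.40-fold higher; adjusted p = 4.37e-04), the largest rise among the members, with 1.31 in replicates 1 and 2 alone (adjusted p = 0.00540), against 1.18 in replicate 3. The call held without any 1 of the 6 E10.5 arrays, and a second probe set gave 0.98.

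At E9.0 Slc6a20b read 6.60, 6.68 and 6.90 in wild type and 7.46, 7.15 and 7.03 in the knockout, which did not overlap. The change of 0.49 (SE 0.15) did not pass (adjusted p = 0.165). The second probe set gave 0.97 at E9.0 and passed (adjusted p = 0.0126 over all probe sets). With the mean of the gene's probe sets the change was 0.73 (adjusted p = 0.0183). The neighbouring paralogue Slc6a20a was dim on all arrays, between 2.56 and 3.17, and how far its transcripts reach the probes of Slc6a20b was not tested.

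**Figure D2:**
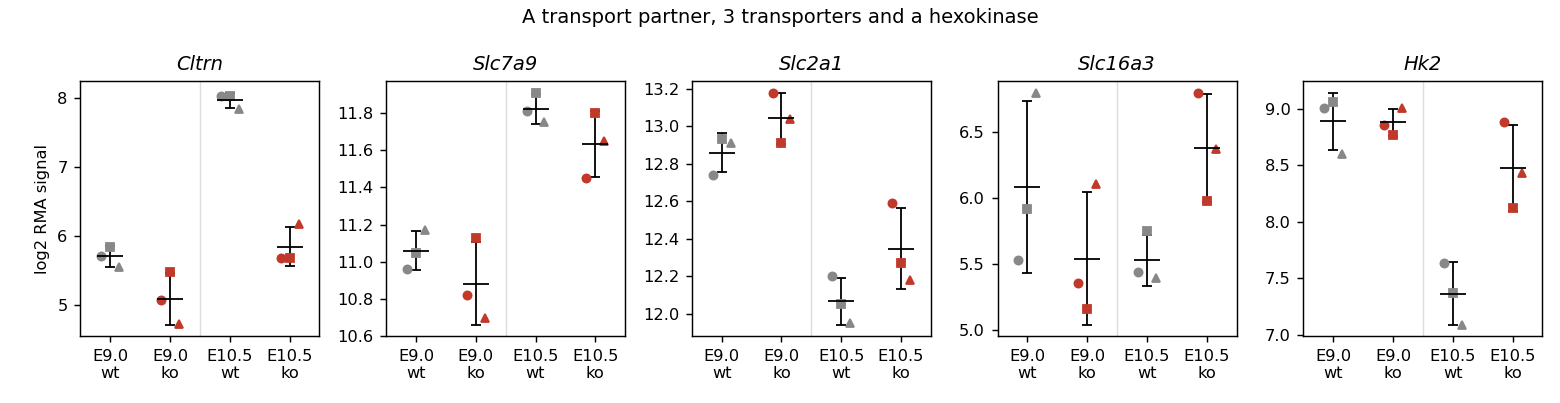
Log2 RMA signal on each of the 12 arrays for the carrier partner Cltrn, the carriers Slc7a9, Slc2a1 and Slc16a3 and the hexokinase Hk2, by stage and genotype (wt, wild type, grey; ko, knockout, red). Circles, squares and triangles are replicates 1, 2 and 3, the long bar is the group mean, the error bar is 1 SD (n = 3), and each panel has its own scale. Cltrn stays between 5.68 and 6.18 in the E10.5 knockout while wild type lies between 7.84 and 8.03.

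Of the 16 Slc7a genes, 1 passed at E9.0 and none at E10.5, where 1.18% and 7.28% of all genes passed. Slc7a7 (chromosome 14), which releases dibasic amino acids on the blood side of absorptive cells, was lower at E9.0. It read 10.09, 10.13 and 10.05 in wild type and 9.36, 9.73 and 9.46 in the knockout, with no overlap. The change was -0.57 (SE 0.11; 1.49-fold lower; adjusted p = 0.0291), with -0.57 in replicates 1 and 2 alone (adjusted p = 0.109), against -0.59 in replicate 3. Its second probe set gave -0.50, not past the threshold. The call was lost on leaving out knockout replicate 1 (adjusted p = 0.156) or 3 (0.0941), or wild type replicate 1 (0.0994), 2 (0.122) or 3 (0.0599), with sizes between -0.49 and -0.59.

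At E10.5 Slc7a7 read 9.72, 9.86 and 9.71 in wild type and 9.47, 9.50 and 9.72 in the knockout, which overlapped (-0.20, SE 0.11; adjusted p = 0.354). Slc3a2, the heavy chain of Slc7a7 and of the large neutral amino acid exchangers Slc7a5 and Slc7a8, read 10.46 to 10.97 in E10.5 wild type and 10.56 to 10.92 in the knockout (-0.013, SE 0.13; adjusted p = 0.974). Slc7a5 changed by -0.24 (SE 0.29; adjusted p = 0.742) and Slc7a8 by -0.29 (SE 0.34; adjusted p = 0.722) at E10.5. Both had 1 knockout array far above the others. Slc7a5 read 6.99 and 7.01 in knockout replicates 1 and 2 but 8.21 in replicate 3, and Slc7a8 read 7.92, 7.65 and 9.32. For both genes wild type replicate 3 was also above the mean of wild type replicates 1 and 2. Within replicates 1 and 2, Slc7a5 was lower by -0.53 (adjusted p = 0.0308) and Slc7a8 by -0.58 (adjusted p = 0.0343).

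The arginine and lysine carrier Slc7a1 read 8.53, 8.52 and 8.58 in the E10.5 knockout and 8.40, 7.92 and 8.05 in wild type. These did not overlap, but the change of 0.42 (SE 0.24) did not pass (adjusted p = 0.382). Slc7a3, another carrier of arginine and lysine, read 5.63, 5.25 and 5.35 in E9.0 wild type and 6.07, 5.89 and 5.81 in the knockout (0.51, SE 0.16; adjusted p = 0.165). Its E10.5 signals were 6.00, 5.99 and 6.47 in wild type and 6.54, 6.55 and 6.96 in the knockout (0.53, SE 0.16; adjusted p = 0.0676). The genotypes did not overlap at either stage, and neither change passed. The cystine and glutamate exchanger Slc7a11 was dim throughout, between 3.07 and 3.46, and its change was -0.0033 at E10.5 (SE 0.099; adjusted p = 0.992). Slc7a6, a relative of Slc7a7, changed by -0.36 at E9.0 (adjusted p = 0.440) and -0.25 at E10.5 (adjusted p = 0.485).

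Slc38a1 (chromosome 15), a sodium-driven carrier that brings glutamine into cells, was higher in the knockout at both stages. At E9.0 it read 8.84, 8.55 and 8.40 in wild type and 9.36, 9.27 and 9.88 in the knockout. At E10.5 it read 8.00, 7.85 and 7.98 in wild type and 9.18, 8.88 and 8.90 in the knockout. The genotypes did not overlap at either stage, and knockout replicate 3 was the highest array at E9.0.

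The change in Slc38a1 was 0.91 at E9.0 (SE 0.16; 1.87-fold higher; adjusted p = 0.0225) and 1.04 at E10.5 (SE 0.16; 2.06-fold higher; adjusted p = 0.00217). Within replicates 1 and 2 it was 0.62 (adjusted p = 0.102) and 1.11 (adjusted p = 0.00603), and in replicate 3 it was 1.48 and 0.92. The E10.5 call held without any 1 of the 6 arrays of that stage. The E9.0 call was lost without knockout replicate 1 (adjusted p = 0.0738) or 3 (0.0584), or wild type replicate 2 (0.0975) or 3 (0.0634), with sizes between 0.72 and 0.98. A second probe set gave 0.76 at E9.0, not past the threshold (adjusted p = 0.176 over all probe sets), and 1.31 at E10.5, which passed (0.00565). The effects of the stages differed by 0.14 (SE 0.23; adjusted p = 0.943). The mesenchyme, macrophage, heart and endothelial markers that were higher in the E10.5 knockout are given above, and their part in the higher signals of Slc38a1, Slc6a20b and Slc36a4 was not tested.

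Slc38a2 and Slc38a4, the neighbours of Slc38a1 on chromosome 15, encode related carriers of small neutral amino acids. Slc38a2, which cells commonly raise when amino acids are short, read 10.43 to 10.60 in E10.5 wild type and 10.37 to 10.63 in the knockout, a change of 0.00 (SE 0.10; adjusted p = 1.00). Slc38a4, an imprinted gene, read 9.31, 9.05 and 9.32 in E10.5 wild type and 10.04, 9.62 and 9.72 in the knockout. All 3 knockout arrays were above wild type, and the change of 0.57 (SE 0.17) lay just short of the threshold (adjusted p = 0.0602). It was 0.65 within replicates 1 and 2 (adjusted p = 0.0404), 0.97 by a second probe set (adjusted p = 0.0390 over all probe sets) and 0.77 with the mean of the gene's probe sets (adjusted p = 0.0115). At E9.0 Slc38a4 changed by -0.15 (SE 0.17; adjusted p = 0.825).

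Slc38a9 (chromosome 13), a lysosomal carrier that reports arginine to the growth kinase mTORC1, was lower at E10.5. It read 9.20, 9.03 and 9.12 in wild type and 8.65, 8.68 and 8.62 in the knockout, 2 tight groups that did not overlap. The change was -0.47 (SE 0.12; 1.38-fold lower; adjusted p = 0.0353), with -0.45 in replicates 1 and 2 alone (adjusted p = 0.0313), against -0.50 in replicate 3. The call was lost on leaving out any 1 E10.5 array. The adjusted p was then 0.0983, 0.0629 and 0.0655 without knockout replicates 1, 2 and 3, and 0.128, 0.0694 and 0.0894 without wild type replicates 1, 2 and 3. The other 6 probe sets of the gene gave -0.11 to -0.49, and the mean of all 7 gave -0.28 (adjusted p = 0.155). At E9.0 Slc38a9 read 8.68, 8.73 and 8.56 in wild type and 8.55, 8.60 and 8.12 in the knockout (-0.23, SE 0.12; adjusted p = 0.497).

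None of 15 measured genes of amino acid sensing and mTORC1 passed in either knockout comparison by limma, while 3 at E9.0 and 4 at E10.5 had an unadjusted p under 0.05. Of all genes 1.18% and 7.28% passed, and 11.8% and 20.2% had such an unadjusted p. The list medians were -0.060 and -0.13, against -0.0067 and -0.013 over all genes. Slc38a6, chosen after its values were seen, had the lowest change of all members at E9.0. It read 10.44, 9.73 and 10.29 in wild type and 9.63, 9.72 and 8.58 in the knockout there (-0.84, SE 0.26; adjusted p = 0.165), and 9.75, 9.61 and 9.80 against 8.70, 8.84 and 9.11 at E10.5 (-0.84, SE 0.26; adjusted p = 0.0783). The knockout arrays were below all wild type arrays at both stages.

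Slc36a4 (chromosome 9) belongs to the small Slc36a family of amino acid carriers. Its E10.5 values were 6.81, 6.40 and 6.77 in wild type and 7.35, 7.23 and 7.50 in the knockout, and no arrays overlapped. The change was 0.70 (SE 0.13; 1.62-fold higher; adjusted p = 0.00615), with 0.69 in replicates 1 and 2 alone (adjusted p = 0.0235), against 0.73 in replicate 3, and the call held without any 1 of the 6 E10.5 arrays. At E9.0 it read 6.66, 6.68 and 6.36 in wild type and 7.02, 7.02 and 7.07 in the knockout. These did not overlap either, but the change of 0.47 (SE 0.13) did not pass (adjusted p = 0.108). Slc36a4 and Slc6a20b lie on chromosome 9, as Setd2 does, but neither is within 10 Mb of it. Slc36a1, the lysosomal proton-driven carrier of small amino acids, read 7.50, 7.87 and 7.90 in E10.5 wild type and 6.96, 7.08 and 7.75 in the knockout. It overlapped through knockout replicate 3 (-0.49, SE 0.18; adjusted p = 0.143), and gave -0.67 within replicates 1 and 2 (adjusted p = 0.0221).

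Among the monocarboxylate carriers, Slc16a7 (chromosome 10) was higher in the E9.0 knockout. This carrier takes up pyruvate and lactate with high affinity. The E9.0 signals were 3.65, 3.55 and 3.72 in wild type, near the bottom of the arrays' range, and 4.81, 4.71 and 4.25 in the knockout. The groups did not overlap, and the change was 0.95 (SE 0.20; 1.93-fold higher; adjusted p = 0.0440). It was 1.16 in replicates 1 and 2 alone (adjusted p = 0.0698), against 0.53 in replicate 3. The call was lost on leaving out any 1 of the 6 E9.0 arrays. The adjusted p was 0.201, 0.110 and 0.0529 without knockout replicates 1, 2 and 3, and 0.117, 0.166 and 0.0830 without wild type replicates 1, 2 and 3, with sizes between 0.84 and 1.12.

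At E10.5 Slc16a7 read 6.90, 7.56 and 7.60 in wild type and 6.41, 6.93 and 6.85 in the knockout, which overlapped slightly. The change of -0.62 (SE 0.20) did not pass (adjusted p = 0.0880). The effect at E10.5 minus that at E9.0 was -1.57 (SE 0.28; adjusted p = 0.0509), just outside the threshold. It passed under median centring of each array (-1.61, adjusted p = 0.0339), quantile normalisation (-1.64, adjusted p = 0.0455) and with replicate 3 as a batch block (adjusted p = 0.0402). Without E9.0 knockout replicate 3, E10.5 knockout replicate 2 or E10.5 wild type replicate 1 the adjusted p was 0.0427, 0.0390 and 0.0147. The difference did not pass on leaving out any other single array, nor in replicates 1 and 2 alone.

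Slc16a1, the most widely used lactate carrier, was bright and did not differ by genotype beyond its spread. The E10.5 arrays gave 12.64, 12.33 and 12.85 in wild type and 12.38, 12.34 and 12.87 in the knockout (-0.077, SE 0.16; adjusted p = 0.859). Its chaperones Bsg and Emb, which carry such transporters to the membrane, changed by 0.20 (adjusted p = 0.725) and 0.037 (adjusted p = 0.929). Slc16a3, the lactate exporter of glycolytic cells, read 5.44, 5.75 and 5.40 in E10.5 wild type and 6.80, 5.98 and 6.37 in the knockout. All knockout arrays were above wild type, yet they were spread widely, and the change of 0.85 (SE 0.31) did not pass (adjusted p = 0.137). It passed with replicate 3 as a batch block (adjusted p = 0.0178). At E9.0 Slc16a3 changed by -0.54 (SE 0.31; adjusted p = 0.569), and the difference between the stages, 1.39 (SE 0.44), was not past the threshold (adjusted p = 0.326). Slc16a13, a less studied member of the lactate carrier family, read 8.61, 8.65 and 8.61 in E10.5 wild type and 8.02, 8.07 and 8.38 in the knockout without overlap (-0.47, SE 0.22; adjusted p = 0.251). It was -0.58 within replicates 1 and 2 (adjusted p = 0.0242).

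By the brightest probe set of each gene, none of 12 Slc2a and 13 Slc5a genes had an adjusted p under 0.05 by limma in the knockout at either stage, and 1 dimmer probe set, of Slc2a9, did. At an unadjusted p under 0.05 there were 1 Slc2a and 4 Slc5a genes at E9.0, and 4 and 0 at E10.5, where 11.8% and 20.2% of all genes did at the respective stages. Slc2a1, the general glucose carrier, read 12.20, 12.05 and 11.95 in E10.5 wild type and 12.59, 12.27 and 12.18 in the knockout, where the lowest knockout array lay under the highest wild type array. It changed by 0.28 (SE 0.12; adjusted p = 0.224) at E10.5 and by 0.18 (SE 0.12; adjusted p = 0.641) at E9.0, and its other 2 probe sets gave 0.33 each at E10.5.

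Slc2a3, a high-affinity glucose carrier, was the brightest member, between 13.09 and 13.38 at E10.5 in both genotypes together (-0.070, SE 0.11; adjusted p = 0.803). Slc2a2, the liver-type glucose carrier, read 12.39 to 12.61 in E10.5 wild type and 12.35 to 12.49 in the knockout (-0.12, SE 0.098; adjusted p = 0.575). The 2 probe sets of Slc2a9, a urate carrier, disagreed. The brighter changed by 0.35 at E9.0 (adjusted p = 0.183) and -0.13 at E10.5 (adjusted p = 0.612). The dimmer changed by 0.41 (adjusted p = 0.135 over all probe sets) and by 0.69 at E10.5, where it passed (adjusted p = 0.00435). Of the sodium-driven carriers, Slc5a1, the gut glucose carrier, changed by -0.44 (SE 0.15; adjusted p = 0.213) and -0.25 (adjusted p = 0.393), and the inositol carrier Slc5a3 by -0.34 (adjusted p = 0.264) and -0.25 (adjusted p = 0.300).

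Of 14 measured glycolysis and lactate enzymes, 2 were higher (14.3%, where 4.12% of all genes were higher) and none was lower at E10.5, and none passed at E9.0, where 3 had an unadjusted p under 0.05. Their median at E10.5 was 0.20, and 13 of the 14 had a positive change. Hk2, the hexokinase that traps glucose inside the cell, read 7.64, 7.37 and 7.09 in E10.5 wild type and 8.88, 8.12 and 8.43 in the knockout, with no overlap (1.11, SE 0.19; adjusted p = 0.00466). It was 0.99 in replicates 1 and 2 alone (adjusted p = 0.0308), against 1.34 in replicate 3. Pfkfb3, which makes the activator of phosphofructokinase, read 5.15, 5.18 and 5.37 in wild type and 6.37, 5.73 and 6.65 in the knockout (1.02, SE 0.21; adjusted p = 0.0106). It was 0.88 in replicates 1 and 2 alone (adjusted p = 0.0438), against 1.28 in replicate 3, and 0.44 with the mean of its probe sets (adjusted p = 0.0373).

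Slc6a carriers of other substrates changed in 1 case. Slc6a4 (chromosome 11), the serotonin carrier, read 8.83, 9.14 and 8.98 in E10.5 wild type and 7.72, 8.57 and 7.94 in the knockout, without overlap. Replicate 2 was the highest array in every group. The change was -0.91 (SE 0.23; 1.87-fold lower; adjusted p = 0.0349), with -0.84 in replicates 1 and 2 alone (adjusted p = 0.138), against -1.04 in replicate 3. The call was lost without knockout replicate 1 (-0.73, adjusted p = 0.144) or 3 (0.0759), or wild type replicate 1 (0.0678), 2 (0.131) or 3 (0.0872). At E9.0 Slc6a4 read 8.35, 8.88 and 8.35 in wild type and 7.89, 8.52 and 7.81 in the knockout, which overlapped (-0.45, SE 0.23; adjusted p = 0.495).

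Slc6a13, a carrier of the transmitter GABA and of taurine, read 5.01, 5.08 and 6.15 in E9.0 wild type and 6.32, 5.99 and 6.43 in the knockout. Wild type replicate 3 was far above the other wild type arrays, and the change of 0.83 (SE 0.30) did not pass (adjusted p = 0.245). It was 1.11 within replicates 1 and 2 (adjusted p = 0.0315). The taurine carrier Slc6a6 changed by -0.067 (adjusted p = 0.951) and -0.27 (adjusted p = 0.469), and -0.51 within replicates 1 and 2 at E10.5 (adjusted p = 0.0390). The glycine carrier Slc6a9 changed by 0.087 (adjusted p = 0.931) and -0.31 (adjusted p = 0.401).

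By the brightest probe set, none of 7 Slc1a and 3 Slc43a genes passed in a knockout comparison by limma. Among them 2 Slc1a genes at E9.0 and 1 at E10.5 had an unadjusted p under 0.05, and 0 Slc43a genes did, against 11.8% and 20.2% of all genes. Slc1a3, a glutamate carrier, read 6.51, 6.37 and 6.62 in E9.0 wild type and 7.19, 6.91 and 6.78 in the knockout, without overlap (0.46, SE 0.15; adjusted p = 0.176). At E10.5 it read 6.68, 6.57 and 6.32 in wild type and 7.16, 6.87 and 6.69 in the knockout, again without overlap (0.38, SE 0.15; adjusted p = 0.153). Of its 5 dimmer probe sets 1 passed at E10.5 (0.73; adjusted p = 0.0206 over all probe sets), and with the mean of all 6 the E10.5 change was 0.35 (adjusted p = 0.0293). The glutamate carrier Slc1a1 changed by -0.24 at E10.5 (adjusted p = 0.658) by its brightest probe set, by -0.070 (adjusted p = 0.873 over all probe sets) by another and by -0.54 (adjusted p = 0.0259) by the dimmest. The neutral amino acid exchangers Slc1a4 and Slc1a5 changed by 0.16 (adjusted p = 0.681) and -0.17 (adjusted p = 0.597) at E10.5. Slc43a2, a carrier of large neutral amino acids, changed by -0.21 (SE 0.16; adjusted p = 0.525), and Slc43a3 by 0.23 (SE 0.14; adjusted p = 0.425).

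**Figure D3:**
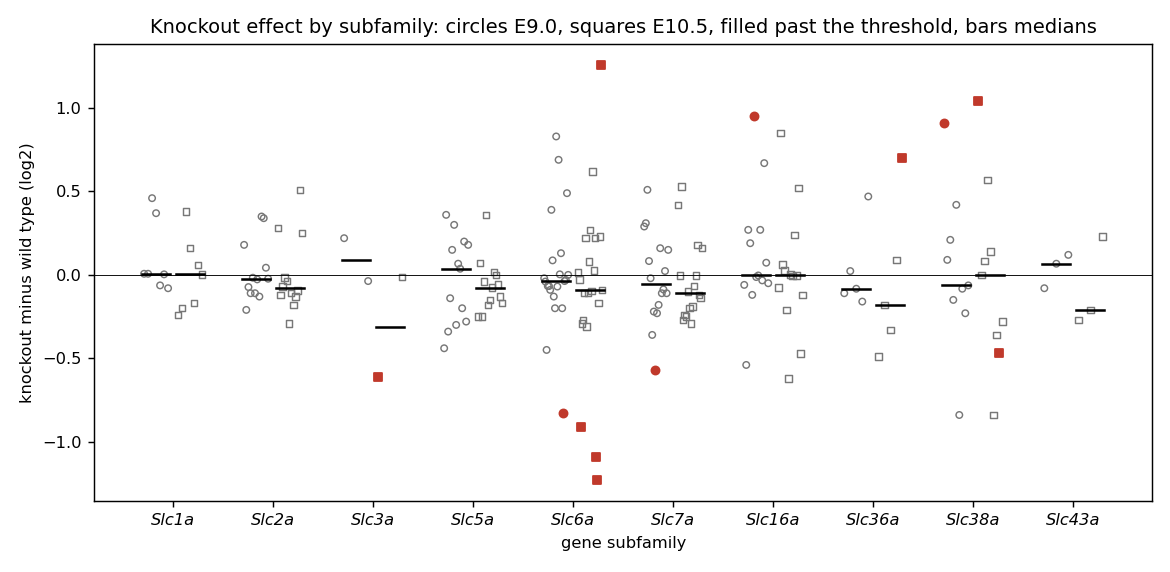
Log2 change (knockout minus wild type) of each of the 101 genes, grouped by subfamily along the horizontal axis, with E9.0 as circles and E10.5 as squares. Filled red marks are past the threshold and black bars are subfamily medians. The E10.5 changes run from -1.23 in Slc6a19 to 1.26 in Slc6a20b, both in the Slc6a subfamily, and no Slc1a, Slc2a, Slc5a or Slc43a gene is filled.

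By subfamily, Slc6a held 4 of the 8 E10.5 calls, 4 of its 21 genes (19.0%), and Slc38a held 2 of its 9 genes (22.2%), where 7.28% of all genes passed. The remaining calls were 1 of 2 Slc3a genes and 1 of 5 Slc36a genes, while none of the 13 Slc16a or 16 Slc7a genes passed at E10.5. Members above the median gene gave 5 calls of 45, and dimmer members 3 of 56, against the same 7.28%. Those 3 were Slc6a18, Slc6a19 and Slc3a1, which all fell.

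The knockout effects of the stages share no arrays, so they can be set against each other. Over the 101 genes the changes correlated with Pearson r = 0.53 and Spearman rho = 0.49, a description across genes, which are not independent replicates. For all 18193 genes the values were 0.47 and 0.39. The sign was the same for 71 members (70.3%), against 61.9% of all genes. Both Slc6a19 and Slc38a1 passed at both stages with the same sign, which is 50.0% of the E9.0 calls and 25.0% of the E10.5 calls. Over all genes the shared calls were 55.8% and 9.06%.

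No member passed the test of the difference between the stages' effects by limma, where 0.187% of all genes did, and 10 members had an unadjusted p under 0.05, against 8.30% of all genes. The smallest adjusted p-values belonged to Slc16a7 (-1.57) and Slc3a1 (-0.83), given above. Slc6a18 (-0.89; adjusted p = 0.153), Slc6a20b (0.78; adjusted p = 0.225), Slc16a3 (1.39; adjusted p = 0.326), the iodide carrier Slc5a5 (-0.48; adjusted p = 0.326) and Slc38a4 (0.72; adjusted p = 0.343) followed. A call at 1 stage and not at the other is therefore not shown to be a difference between stages for any of these genes.

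**Figure D4:**
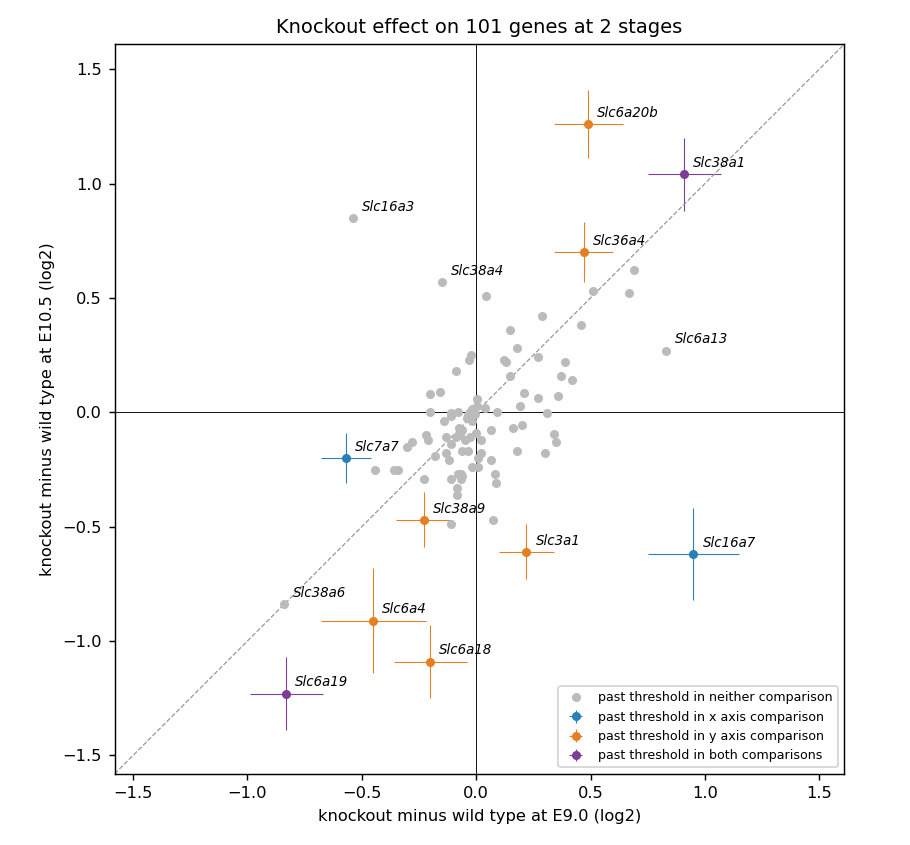
Log2 change in the knockout at E9.0 (horizontal) against E10.5 (vertical) for the 101 genes, with error bars of 1 SE on the genes past the threshold. Colours give the comparison in which a gene passed, and the dashed line marks equal effects. Slc6a19 (-0.83 and -1.23) and Slc38a1 (0.91 and 1.04) pass in both, and Slc16a7 (0.95 and -0.62) lies far from the line.

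Between E9.0 and E10.5 the carriers changed more often than with genotype. In wild type 27 members (26.7%) passed, 16 higher and 11 lower at E10.5, against 22.2% of all genes (13.4% higher and 8.86% lower). In the knockout 25 members (24.8%) passed, 12 higher and 13 lower, against 23.6% of all genes (14.4% higher and 9.17% lower). With each array centred on its median, the wild type split was 13 higher and 12 lower, and the knockout split 9 higher and 18 lower. That scaling moved the median of all genes by -0.097 and -0.13.

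Slc16a7 had the largest rise in both genotypes. Its signal went from 3.55 to 3.72 at E9.0 to 6.90 to 7.60 at E10.5 in wild type, a change of 3.71 (SE 0.20; 13.1-fold; adjusted p = 5.07e-07), and rose by 2.14 in the knockout (SE 0.20; 4.41-fold; adjusted p = 2.50e-05). Slc6a13 rose by 2.02 (SE 0.30; adjusted p = 5.21e-04) and 1.46 (SE 0.30; adjusted p = 0.00367). The creatine carrier Slc16a12 rose by 1.30 and 1.16, the glutamate carrier Slc1a1 by 1.28 and 1.03, and the arginine carrier Slc7a2 by 1.24 and 0.93, in wild type and knockout. Slc5a4b, of the sodium glucose carrier family, rose by 1.12 and 1.33, and Slc38a4 by 0.58 and 1.30. Each of these passed in both genotypes by its brightest probe set, but not every dimmer probe set did. In wild type the dimmer ones of Slc7a2 gave 0.26, 0.51 and -0.070, of which 0.51 passed. Those of Slc1a1 gave 0.42, not past the threshold, and 0.99, and that of Slc38a4 gave 0.34, not past the threshold.

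Of the brush border carriers described above, 4 rose with stage in wild type, while Slc6a20b fell (given below) and Slc5a1 changed by 0.27 (adjusted p = 0.231). Slc3a1 rose by 1.19 (SE 0.12; adjusted p = 4.57e-05), Slc6a18 by 1.13 (SE 0.16; adjusted p = 3.45e-04), Slc6a19 by 0.94 (SE 0.16; adjusted p = 0.00111) and Slc7a9 by 0.76 (SE 0.13; adjusted p = 0.00107). In the knockout Slc7a9 rose by 0.75 (adjusted p = 0.00116) and Slc6a19 by 0.55 (adjusted p = 0.0235). Slc3a1 changed there by 0.36 (SE 0.12; adjusted p = 0.0538) and Slc6a18 by 0.24 (SE 0.16; adjusted p = 0.318). The partner Cltrn rose by 2.26 in wild type (SE 0.18; adjusted p = 7.17e-06) and by 0.76 in the knockout (SE 0.18; adjusted p = 0.00932). The difference between the genotypes' stage changes is the same quantity as the difference between the stages' knockout effects, and of these 5 genes Cltrn alone passed it.

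Genes that fell from E9.0 to E10.5 in both genotypes included the glucose carriers Slc2a1 and Slc2a3 and the lactate carrier Slc16a1. Slc2a1 went from 12.74 to 12.93 at E9.0 to 11.95 to 12.20 at E10.5 in wild type, with no overlap, and changed by -0.79 (SE 0.12; adjusted p = 7.30e-04) in wild type and -0.70 (SE 0.12; adjusted p = 0.00162) in the knockout. Slc2a3 changed by -0.45 and -0.44, Slc16a1 by -0.51 and -0.53 and Slc3a2 by -0.57 and -0.55. The carnitine carrier Slc16a9 changed by -0.83 in each genotype and Slc7a6 by -0.84 and -0.73. The aromatic amino acid carrier Slc16a10 changed by -0.61 and -0.64, Slc6a6 by -0.59 and -0.79, Slc38a10 by -0.52 and -0.74, and Slc38a1 by -0.65 and -0.52. All of these passed in both genotypes. Other widely used carriers did not pass in wild type, among them Slc7a5 (-0.48; adjusted p = 0.286), Slc7a1 (-0.52; adjusted p = 0.155), Slc1a5 (-0.24; adjusted p = 0.276) and Slc16a3 (-0.55; adjusted p = 0.250).

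Other falls passed in 1 genotype by the brightest probe set. Slc6a20b changed by -0.73 in wild type (SE 0.15; adjusted p = 0.00426) and 0.043 in the knockout (SE 0.15; adjusted p = 0.882). Its second probe set gave -0.50 in each genotype and passed in both. In the knockout Slc16a13 changed by -0.97 (adjusted p = 0.00640), the kidney glucose carrier Slc5a2 by -0.85 (adjusted p = 0.0342) and Slc6a9 by -0.67 (adjusted p = 0.0190). Their wild type changes were -0.43, -0.55 and -0.28, not past the threshold. In the knockout a dimmer probe set gave -0.32 for Slc5a2 and -0.23 for Slc6a9, neither past the threshold. For Slc6a20b, Slc16a13, Slc5a2 and Slc6a9 the difference between genotypes was not past the threshold.

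The stage changes of the 2 genotypes also share no arrays. They correlated over the 101 genes with Pearson r = 0.84 and Spearman rho = 0.76, against 0.78 and 0.71 over all genes. Of the calls, 20 were shared and all 20 had the same sign, which is 74.1% of the wild type calls and 80.0% of the knockout calls. Over all genes the shared calls were 67.1% and 63.3%.

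**Figure D5:**
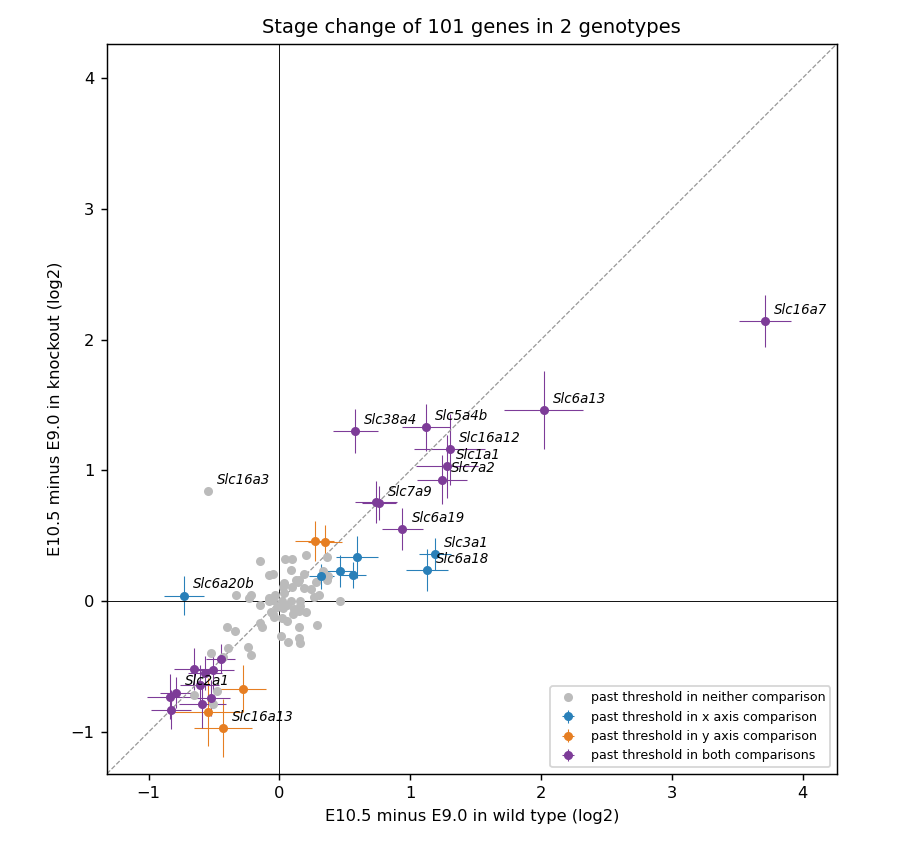
Log2 change from E9.0 to E10.5 in wild type (horizontal) against knockout (vertical) for the 101 genes, with error bars of 1 SE on the genes past the threshold. Colours give the genotype in which a gene passed, and the dashed line marks equal change. Slc16a7 (3.71 and 2.14), Slc3a1 (1.19 and 0.36), Slc6a18 (1.13 and 0.24) and Slc6a20b (-0.73 and 0.043) lie off the line.

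Partner and nutrient-response genes outside the families gave few further calls at E10.5. Of the 12 measured partner and trafficking proteins, 3 were lower (25.0%) and none higher, where 3.16% of all genes were lower and 7.28% passed in either direction, and none passed at E9.0, where 1 had an unadjusted p under 0.05. Besides Cltrn these were Sgk1, a kinase that keeps carriers at the membrane, and Arrdc4, an arrestin relative of Txnip that limits glucose uptake. Sgk1 read 9.58, 8.73 and 9.29 in wild type and 8.21, 8.35 and 8.36 in the knockout, with no overlap (-0.89, SE 0.21; adjusted p = 0.0201). It was no longer past the threshold on leaving out knockout replicate 1 (adjusted p = 0.0757), wild type replicate 1 (0.0849) or wild type replicate 3 (0.0674), nor in replicates 1 and 2 alone (-0.87, adjusted p = 0.0849). Arrdc4 read 7.47, 8.02 and 7.98 in wild type and 6.72, 7.16 and 7.51 in the knockout, which overlapped (-0.69, SE 0.18; adjusted p = 0.0376). It was likewise lost without knockout replicate 1 (-0.49, adjusted p = 0.141) or 2 (0.0743), or wild type replicate 2 (0.151) or 3 (0.124). Txnip itself changed by 0.25 (adjusted p = 0.354).

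Of 17 measured genes of amino acid synthesis and the stress factor ATF4, 2 were higher at E10.5 (11.8%, where 4.12% of all genes were higher) and none at E9.0, where 0 had an unadjusted p under 0.05. Chac1, which breaks down glutathione, read 5.01, 4.79 and 4.39 in wild type and 5.82, 5.77 and 5.96 in the knockout, without overlap (1.12, SE 0.14; adjusted p = 6.00e-04). It was 0.90 in replicates 1 and 2 alone (adjusted p = 0.00633), against 1.57 in replicate 3. Ddit4, an inhibitor of mTORC1 that hypoxia and other stress induce, read 4.57, 4.82 and 4.86 in wild type and 6.70, 6.62 and 7.24 in the knockout, far apart (2.10, SE 0.28; adjusted p = 7.09e-04). It was 1.97 in replicates 1 and 2 alone (adjusted p = 0.00125), against 2.38 in replicate 3. The list median was 0.020, and 10 of the 17 changes were positive. Slc7a11 and Slc38a2, carriers that ATF4 commonly raises, were described above with changes of -0.0033 and 0.00. Slc7a11 was dim, and dimmer probe sets gave 0.31 for Slc7a11 and 0.20 and 0.23 for Slc38a2, none past the threshold. All knockout arrays lay above wild type for 4 of the 17 list genes and below for 0, against 11.5% and 11.3% of all genes. Vldlr, chosen after its values were seen, changed by 1.60 without overlap (SE 0.50; adjusted p = 0.0771). The part of ATF4 in these values was not tested.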

How the data were processed

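Per the submitters' processing notes, the authors used RMA to make the deposited log2 values. This method corrects background, brings the arrays to 1 distribution and merges each probe set's probes into 1 signal. Its version is not given in the sources used here. Neither detection calls nor depth come with such values, and precision is limited by the number of arrays. The median SE of a 2-group comparison was 0.126.

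Of 45101 probe sets, 64 controls were left out. By the platform annotation 34945 of the probe sets named 1 symbol, 932 several and 9160 had no entry. The probe set with the highest 12-array mean stood for each gene, which gave 18193 genes. All 101 members were matched to the reference gene table.

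Groups came from the sample titles. limma 3.58.1 in R 4.3.3 was fitted to all 12 arrays with 1 mean per group, with 8 residual and 4.56 prior degrees of freedom. Tests were two-sided, with Benjamini-Hochberg adjustment over all genes of a comparison and a threshold of 0.05. The fit was tested on simulated data. The design text calls the 3 arrays of a group biological repeats. Each p-value sets a difference of group means against the spread between such pools, estimated over all 4 groups. As the main fit held no block, that spread includes any shift of replicate 3.

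The members, lists and naming rule were chosen with earlier results of these data known. The rule named called members, the brightest of each subfamily, 23 well-known carriers, and the 6 largest changes each way per stage comparison. It also named up to 5 called genes per partner list, and genes outside it are said to be so.

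Replicate 3 was treated as a batch inferred from control probe sets and not named in the labels. BioC minus BioB was -0.10 and -0.023 on the E9.0 replicate 3 arrays against 1.46 to 1.52 on the other E9.0 arrays. The dap 3' minus 5' signal was 1.76 and 1.74 on the E10.5 replicate 3 arrays against 1.05 to 1.31 on the other E10.5 arrays. Alternatives covered probe set choice, level filter, scaling, arrays fitted, blocks, variance moderation and leaving out each array.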

Additional observations from a re-analysis of the deposited data

How the results depend on the processing

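At E9.0 the 4 calls became 2 among genes above the median level, a filter that leaves 45 members. The filter leaves out the dimmer called genes Slc6a19 and Slc16a7, so no call was lost by the refit itself. The 4 calls became 0 with only the 6 arrays compared, and 1 (Slc6a13) in replicates 1 and 2 alone. They numbered 0 without knockout replicate 1, knockout replicate 3 or wild type replicate 2, and 1 without wild type replicate 1 or 3, in a range of 0 to 4 over all arrays left out in turn. At E10.5 the 8 calls became 5 among genes above the median level, since the filter leaves out Slc6a18, Slc6a19 and Slc3a1. The 8 calls became 14 with replicate 3 as a batch block and 16 in replicates 1 and 2 alone, 7 of them among the 8. They numbered 5 without knockout replicate 1 or wild type replicate 2, in a range of 5 to 10. The difference between stages, with 0 calls, gave 1 (Slc16a7) with the mean of probe sets, median centring, quantile normalisation, the batch block or trended and robust moderation, and 0 to 1 with 1 array left out. The stage calls stayed between 18 and 33 under every alternative, with 21 to 30 in wild type and 21 to 29 in the knockout with 1 array left out. Of the named genes' values past the threshold in the main or the alternative fit, 1 turned its sign. The knockout stage change of Slc5a3, 0.45, was -0.070 (adjusted p = 0.729) with the mean of its probe sets. Turns of sign among values past the threshold in neither fit were not counted. Apart from genes left out by the level filter, the cause of these changes was not tested. The share of all genes that passed was not counted under the alternatives. A larger or smaller count of members there is therefore not shown to be particular to them.

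Deviations from the group means were correlated between wild type and knockout arrays of a stage. Same-numbered arrays gave r = 0.034, 0.23 and 0.24 at E9.0, and 0.26, 0.067 and 0.40 at E10.5. Differently numbered arrays gave -0.36 to 0.26 at E9.0 and -0.35 to 0.17 at E10.5, most of them negative. Same-numbered arrays thus leaned the same way, by uneven amounts. The labels name no pairing, so the main fit held no replicate block. With a replicate block the calls were 5 at E9.0, 13 at E10.5, 2 for the difference between stages (Slc16a7 and Slc3a1), 29 for the wild type stage change and 28 for the knockout stage change. The share of all genes that passed with this block was not counted either.

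Changes of dim probe sets such as Slc3a1 and Slc16a7 at E9.0 are compressed by RMA, normalising to 1 distribution removes any change shared by all transcripts, and 3 arrays a group limit the precision.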
